A study of Mus musculus with 6 samples.

Results

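The genes described here are 8 genes of cholesterol synthesis and export, measured by RNA sequencing in neutrophils of cGAS-/- mice. They were taken by gene symbol, and all 8 were found among the 38739 genes of the table and among the 23049 genes with a value above 0 in at least 1 sample. *Idi1*, *Fdps*, *Lss*, *Cyp51* and *Msmo1* encode enzymes of synthesis, *Insig1* and *Srebf1* belong to the control of synthesis, and *Abca1* encodes a cholesterol exporter. Both groups were C57B/L6 mice with a knockout of cGAS, the cytosolic DNA sensor that makes cGAMP. The neutrophils came from the peritoneum, where thioglycolate had drawn them, and were cultured for 2 h with media control (untreated, n = 3) or with lipopolysaccharide (LPS, n = 3), the endotoxin of Gram-negative bacteria. In the labels LPS was used at 500 ng/mL, while the methods of the paper state a lower dose for this experiment. No wild-type samples are part of the series, so no value here bears on what cGAS does to these genes. The sources used here do not say whether the 3 samples of a group came from separate animals, so p values measure the spread between samples, which may be technical.

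Cells make cholesterol from acetyl-CoA through mevalonate, isoprenoid phosphates, squalene and lanosterol. When sterol in the endoplasmic reticulum runs low, the SREBP transcription factors travel with SCAP to the Golgi, are cut, and switch on the synthesis genes, while INSIG proteins hold SCAP back when sterol is plentiful. When sterols build up, oxysterols activate the liver X receptors (LXRs), which raise the exporters *Abca1* and *Abcg1* and also *Srebf1*. In macrophages, Toll-like receptor signalling is known to alter several of these genes.

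Promoters of SREBP-responsive genes often hold a CCAAT box, bound by NF-Y, and an Sp1 box beside the sterol response element. The 250 bases before the start of 4 of the genes are printed here to show which of these letters synthesis and control genes and the exporter carry. They come from RefSeq (GRCm38.p6, 5′ to 3′ on the strand of the gene), and capitals mark the CCAAT box on either strand. *Idi1* lies at chr13:8885356-8885605 (plus strand), *Insig1* at chr5:28071162-28071411 (plus), *Msmo1* at chr8:64733579-64733828 (minus) and *Abca1* at chr4:53159896-53160145 (minus).
Idi1: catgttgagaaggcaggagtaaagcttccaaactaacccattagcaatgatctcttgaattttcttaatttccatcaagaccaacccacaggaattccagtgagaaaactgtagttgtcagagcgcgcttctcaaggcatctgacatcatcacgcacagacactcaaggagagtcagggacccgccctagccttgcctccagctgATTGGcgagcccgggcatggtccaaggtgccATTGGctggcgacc
Insig1: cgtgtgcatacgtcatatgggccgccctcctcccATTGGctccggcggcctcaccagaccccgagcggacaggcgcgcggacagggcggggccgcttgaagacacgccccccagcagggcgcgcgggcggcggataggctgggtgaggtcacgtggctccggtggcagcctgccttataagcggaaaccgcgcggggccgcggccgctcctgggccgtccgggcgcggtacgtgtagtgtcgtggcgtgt
Msmo1: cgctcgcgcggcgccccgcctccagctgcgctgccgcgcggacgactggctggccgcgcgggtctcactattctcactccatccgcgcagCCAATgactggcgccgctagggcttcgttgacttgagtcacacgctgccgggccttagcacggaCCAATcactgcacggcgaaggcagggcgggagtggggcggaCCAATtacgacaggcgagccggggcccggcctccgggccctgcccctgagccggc
Abca1: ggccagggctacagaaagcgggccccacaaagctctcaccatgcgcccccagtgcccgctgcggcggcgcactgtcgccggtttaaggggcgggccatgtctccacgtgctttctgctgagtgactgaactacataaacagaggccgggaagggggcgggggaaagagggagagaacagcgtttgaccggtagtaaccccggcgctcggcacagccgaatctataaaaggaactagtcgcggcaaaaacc
*Idi1* held 2 CCAAT boxes, *Insig1* held 1, *Msmo1* held 3, and *Abca1* held none. RefSeq promoters were matched for 7 of the 8 genes, all but *Fdps*, and 6 of these 7 held CCAAT on either strand, against 33.8% of the 32536 promoters of the table. The Sp1 box GGGCGG was in 7 of 7, *Abca1* included, against 33.0% of all promoters. The sterol response element, searched as TCACNCCAC, was in 0 of 7 and in 1.04% of all promoters. The E box CACGTG was found in *Insig1* and *Abca1* and in 6.04% of all promoters. The LXR element, searched as a direct repeat of AGGTCA with 4 bases between, was in 0 of 7 and in 0.0154% of all promoters. Only exact letters counted, and these matched 5 of 32536 promoters. Repeats that differ by a base were missed, so the 0 of 7 cannot show that these genes lack an LXR element. The same limit holds for the sterol response element. The NF-κB consensus was in 1 of 7 (*Srebf1*) and in 7.28% of all promoters. Both strands were searched, each motif was counted on its own whether or not it overlapped another, and a match is a string of letters, not a measured binding site. *Srebf1* has 3 starts in RefSeq and was counted as holding a motif if any of them did.

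Values are scaled TPM (transcript abundance per length, relative to the sample total), taken as the average of the transcripts that a gene has, with 1 scaling factor for each sample. They carry no read counts, so depth is unknown and the spread between samples is the only error. The values of a sample summed to 603599 to 713384 in untreated and to 404675 to 465904 in LPS samples, with 15419 to 15800 and 16148 to 19191 genes above 0. Of 13 genes known to respond to LPS in myeloid cells, 10 rose and 0 fell. The neutrophil markers summed to 9694 to 28440 in untreated and 16110 to 54720 in LPS samples, with *Elane*, a granule gene known from precursors, at 0 in every sample. *S100a8* and *S100a9* made up most of each sum, at 19851 and 28393 in LPS 2. Of the 15 neutrophil markers tested, 8 had a log2 difference above 0 and 7 below. Of these, 1 was called higher (*Mrgpra2b*) and 1 lower (*Cxcr2*). B cell markers summed to 331.1 to 1191 and 276.0 to 839.2 and were lowest in replicate 2 of both groups, where neutrophil markers were highest. Macrophage and monocyte markers summed to 1141 to 1555 and 856.6 to 1141. Most of this was *Lyz2*, at 872 to 1367 and 532 to 695. Of the 13 tested, 8 had a log2 difference above 0 and 5 below, and *C1qb* was called higher. Dendritic cell markers summed to 17.43 to 64.78 and 69.91 to 181.6. Most of this was *Ccr7* (means 11.1 and 87.5) and *Itgax* (24.3 and 49.9). Of the 8 tested, 6 were above 0 and 2 below, with 0 called. Erythrocyte and platelet markers summed to 20.78 to 2705 and 121.2 to 3101. In bulk samples, fewer cells of a type and less RNA per cell cannot be told apart. The part of other cell types in the results was not tested. The deleted gene *Cgas* was listed at 0.0286 to 0.307 in all 6 samples.

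Differences are log2(scaled TPM + 1) of LPS minus untreated, fitted by limma over all genes tested, with Benjamini-Hochberg adjusted p values over the same genes. Calls needed p under 0.01 before adjustment together with a log2 difference beyond 2. None of the 8 genes was called, 0 of 8 higher and 0 of 8 lower, where 1.69% of all genes tested were called higher and 1.31% lower. By limma, 1 of the 8 (*Idi1*) had a p under 0.05 before adjustment, against 16.9% of all genes. None (0 of 8) had an adjusted p under 0.05, against 1.84% of all genes (206 higher and 218 lower). That count of all genes varied when 1 sample was left out. It was 1 and 7 without LPS 1 or without LPS 3, and 63 and 71 without untreated 3. Without untreated 1 it was 132 and 180, without untreated 2 194 and 256, and without LPS 2 230 and 129. Such fits also hold fewer samples, and the cause was not tested. Of the 8, the count with an adjusted p under 0.05 was 1 with low genes left out or without the mean-variance trend, and 3 with limma-voom. Far more of all genes passed in these fits too. With low genes left out, 557 were higher and 483 lower of 9403. Without the trend these were 687 and 611 of 23049, and with limma-voom 8941 and 452 of 23049. In 7 of the 8 the log2 difference was above 0, with a median of 0.46 over the 8. The median over all genes tested was 0.01, and over the 9403 genes with a mean of at least 1 it was 0.13. Those above 0 include *Msmo1* at 0.02 and *Srebf1* at 0.23. Their direction turned in 4 and 2 other fits, and that of *Cyp51*, the gene below 0, in 2. The groups did not overlap, with LPS higher, for 2 of 8 (*Idi1* and *Lss*), against 13.1% of all genes, and with LPS lower for 0 of 8, against 9.75%. Among genes with a mean of at least 1, which all of the 8 but *Lss* reach, these shares were 19.1% and 15.2%.

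**Figure D1:**
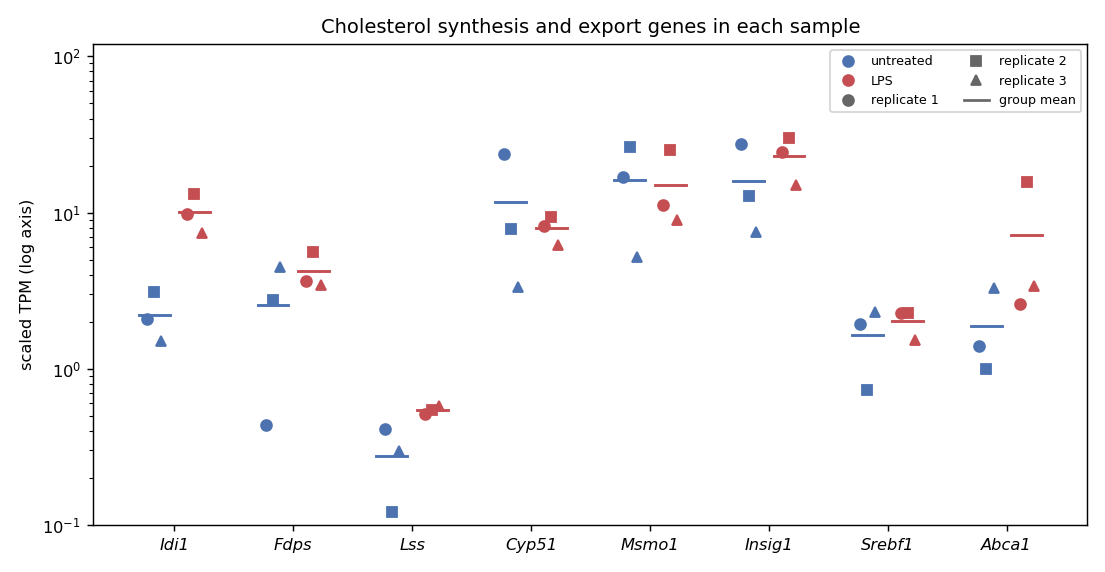
Scaled TPM (log axis) of the 8 genes in each of the 3 untreated (blue) and 3 LPS (red) samples, with replicate numbers as marker shapes and group means as lines. For *Idi1* and *Lss* all LPS points lie above all untreated points, and for *Abca1* the LPS mean of 7.20 rests on LPS 2 at 15.6.

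*Idi1* (ENSMUSG00000058258, chr13:8935537-8942487, plus strand, GRCm39) encodes isopentenyl diphosphate isomerase, which makes dimethylallyl diphosphate, the starter of isoprenoid chains. It stood at 2.08, 3.09 and 1.50 scaled TPM in untreated 1, 2 and 3 and at 9.73, 13.1 and 7.37 in LPS 1, 2 and 3. Every LPS sample was above every untreated sample. The means were 2.22 ± 0.803 and 10.1 ± 2.88 (SD, n = 3 each), a ratio of 4.53. On the log2 scale LPS was higher by 1.78 (SE 0.36, 95% interval 0.91 to 2.64, adjusted p = 0.070 by limma), which passed the limit on p but not that on fold. With a pseudocount of 0.1 or 0.01 in place of 1, or with limma-voom, the difference was 2.15, 2.20 or 2.59 and *Idi1* was called.

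*Idi1* has a near-identical copy. The processed pseudogene *Idi1-ps1* on chromosome 2 holds a stretch of 684 bases that is 100% identical to *Idi1* transcripts, so reads of that stretch could have been assigned to either. Untreated 1, 2 and 3 had 4.54, 4.20 and 12.2 scaled TPM of *Idi1-ps1*, and LPS 1, 2 and 3 had 23.9, 10.3 and 19.3. Its log2 difference was 1.30 (SE 0.51, adjusted p = 0.28 by limma), and its groups overlapped, since untreated 3 was above LPS 2. The division of the signal between gene and copy is therefore uncertain. In scaled TPM *Idi1-ps1* was the higher of the pair in 5 of 6 samples, all but LPS 2. The average over transcripts lowers *Idi1*, which has 8 listed in GENCODE M39, so this order does not tell which of the pair gave more RNA. The part of the copy in the *Idi1* difference was not tested.

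**Figure D2:**
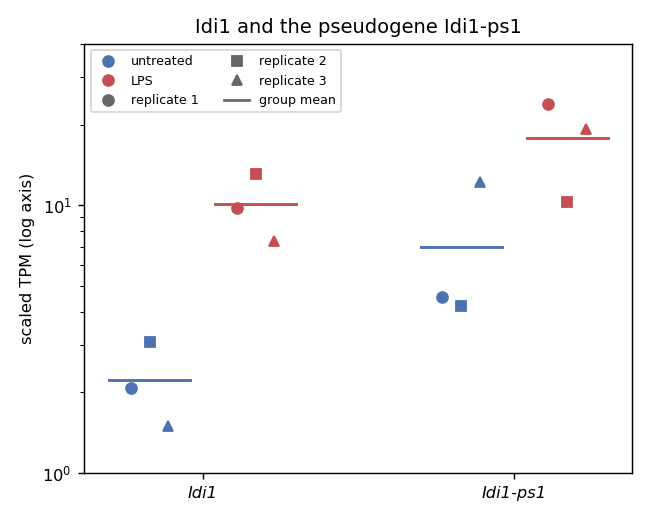
Scaled TPM (log axis) of *Idi1* and of its processed pseudogene *Idi1-ps1* in each sample, drawn as in the plot of all 8 genes. The *Idi1* groups are apart, while the *Idi1-ps1* groups overlap, with untreated 3 at 12.2 and LPS 2 at 10.3.

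*Fdps* (ENSMUSG00000059743, chr3:89000888-89019213, minus strand) encodes farnesyl diphosphate synthase, which joins the isoprenoid units into the precursor of squalene and of prenyl groups. It stood at 0.437, 2.74 and 4.46 in untreated and at 3.66, 5.61 and 3.42 in LPS samples. Untreated 1 was far below the rest, and untreated 3 was above 2 of the LPS samples. LPS minus untreated came to 0.74 on the log2 scale (SE 0.55, interval -0.62 to 2.09, adjusted p = 0.55). The near-identical *Gm3571*, *Gm5873* and *Gm7979* were listed at 0 in every sample.

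*Lss* (ENSMUSG00000033105, chr10:76367298-76392976, plus strand) encodes lanosterol synthase, which closes the first sterol ring system. It was the lowest of the 8, at 0.412, 0.122 and 0.296 in untreated and 0.511, 0.548 and 0.580 in LPS samples. The groups did not overlap, and the LPS samples lay within 1.13-fold of each other, against 3.39-fold among the untreated. Its log2 difference was 0.28 (SE 0.18, interval -0.16 to 0.73, adjusted p = 0.50), on a scale where a pseudocount of 1 compresses such low values.

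*Cyp51* (ENSMUSG00000001467, chr5:4123416-4154751, minus strand) encodes lanosterol 14α-demethylase. It stood at 23.7, 7.89 and 3.34 in untreated and 8.21, 9.36 and 6.20 in LPS samples, so the LPS values lay inside the untreated range. The log2 difference was -0.16 (SE 0.66, interval -1.76 to 1.44, adjusted p = 0.91), and it was 0.51 without untreated 1. *Akap9*, which overlaps *Cyp51* over 1204 bases on the other strand, was also highest in untreated 1, at 3.91, against 0.124 and 0.707 in untreated 2 and 3 and 0.225 to 0.603 in LPS samples. The library kit keeps the strand, but the strand setting of the quantification is not given in the sources used here, so the part of *Akap9* was not tested.

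*Msmo1* (ENSMUSG00000031604, chr8:65170603-65186830, minus strand) encodes the methylsterol monooxygenase that acts after *Cyp51*. It stood at 16.8, 26.4 and 5.17 in untreated and 11.1, 25.1 and 8.95 in LPS samples. The groups overlapped almost wholly, and replicate 2 was the highest and replicate 3 the lowest in both. The log2 difference was 0.02 (SE 0.67, interval -1.62 to 1.65, adjusted p = 0.99), so a change by a log2 of 1 in either direction lies inside the interval.

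Of the genes that control synthesis, *Insig1* (ENSMUSG00000045294, chr5:28276315-28283668, plus strand) encodes the protein that retains SCAP, and is itself a target of the SREBPs. It stood at 27.5, 12.8 and 7.49 in untreated and 24.4, 29.9 and 15.0 in LPS samples. Untreated 1 was above 2 of the LPS samples, so the groups overlapped. *Insig1* had a log2 difference of 0.64 (SE 0.53, interval -0.66 to 1.94, adjusted p = 0.55). *Srebf1* (ENSMUSG00000020538, chr11:60089913-60113407, minus strand) encodes SREBP1, whose 1c form drives fatty acid synthesis. It stood at 1.92, 0.734 and 2.31 in untreated and 2.28, 2.27 and 1.53 in LPS samples, which overlapped. The log2 difference was 0.23 (SE 0.37, interval -0.67 to 1.13, adjusted p = 0.75), and it was -0.05 without untreated 2. Gene totals do not tell the 1a and 1c forms apart.

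*Abca1* (ENSMUSG00000015243, chr4:53030787-53159900, minus strand) encodes the transporter that loads cholesterol onto apolipoprotein A-I. It stood at 1.40, 0.995 and 3.27 in untreated and at 2.60, 15.6 and 3.37 in LPS samples. LPS 2 was far above every other sample, and LPS 1 was below untreated 3. *Abca1* had a log2 difference of 1.23 (SE 0.68, interval -0.42 to 2.88, adjusted p = 0.42). Without LPS 2 it was 0.54, and without replicate 2 of both groups it was 0.31. LPS 2 also had the highest sum of neutrophil markers of the 6 samples, most of it *S100a8* and *S100a9*, and the lowest of B cell markers. The part of these cell types in the *Abca1* value was not tested. The log2 difference of *Idi1* was 1.77 without replicate 2 of both groups.

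**Figure D3:**
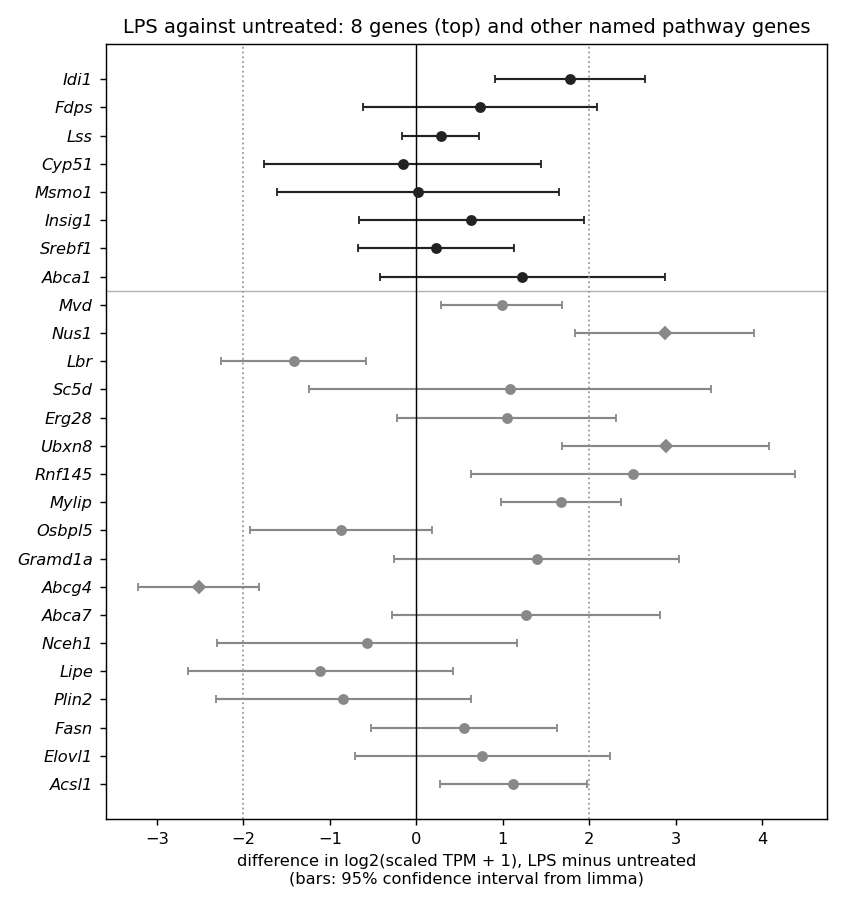
Difference in log2(scaled TPM + 1), LPS minus untreated, with its 95% limma interval, for the 8 genes (black, top) and the pathway genes named for a call or a large difference in their list (grey), with diamonds for called genes and dotted lines at the fold limit. Of the 8, the interval of *Idi1* alone leaves out 0 and its centre lies inside the limit, while *Nus1*, *Ubxn8* and the uncalled *Rnf145* lie beyond 2 and *Abcg4* beyond -2.

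The 8 genes differed in how widely samples of 1 group scattered. Among untreated samples, the highest value was 10.2 times the lowest for *Fdps*, 7.10 times for *Cyp51* and 5.11 times for *Msmo1*, against 2.06 times for *Idi1*. Among LPS samples the same ratio was 1.64 for *Fdps*, 1.51 for *Cyp51*, 2.80 for *Msmo1* and 1.78 for *Idi1*, and it was largest for *Abca1*, at 6.01. LPS 2 was the highest LPS sample for 6 of the 8 genes (75.0%), against 38.5% of the genes with a mean of at least 1, and LPS 3 was the lowest for 6 of 8, against 23.8%. The untreated samples did not repeat this order for replicate 2. Of the 8 genes, untreated 2 was the highest untreated sample for 2 (25.0%) and the lowest for 3. Untreated 3 was the highest for 3 and the lowest for 4. A wider set of 16 synthesis genes with a mean of at least 1 differed from the 8. In that set untreated 2 was the highest untreated sample for 11 (68.8%), against 33.5% of genes. Untreated 3 was the lowest for 9 of the 16 (56.2%), against 28.0%. These orders are a description made after the values were seen.

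**Figure D4:**
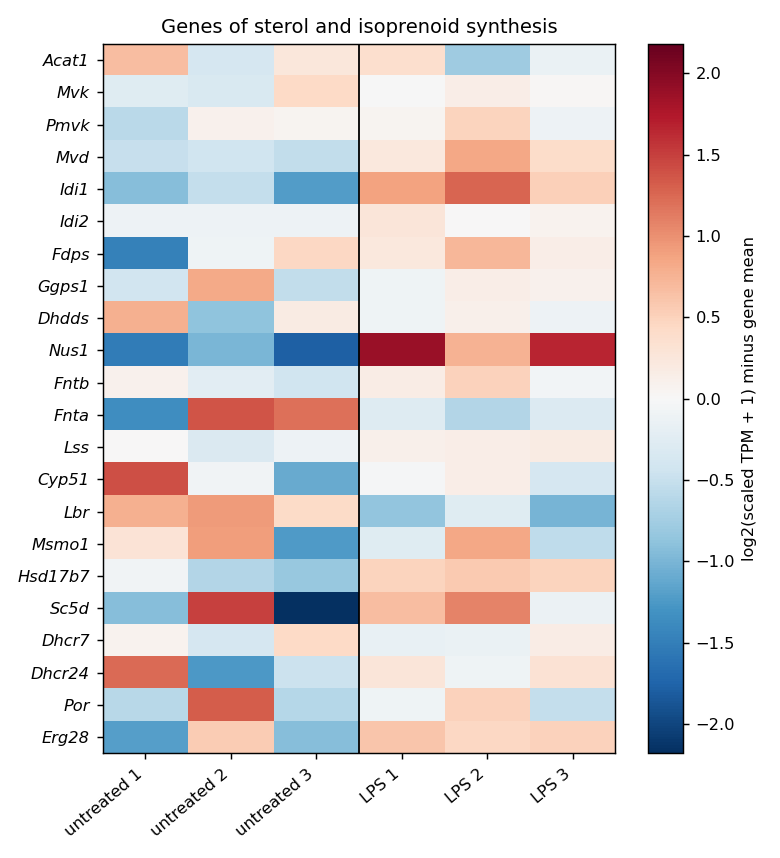
The 22 genes of sterol and isoprenoid synthesis that were tested, in pathway order, as log2(scaled TPM + 1) minus the mean of the gene over 6 samples (red above, blue below). *Idi1*, *Mvd*, *Nus1* and *Hsd17b7* are blue in all untreated and red in all LPS samples, *Lbr* is the reverse, and *Cyp51*, *Msmo1* and *Sc5d* vary as much inside the untreated group as between groups.

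In order of mean level, untreated samples had *Msmo1* (16.1), *Insig1* (15.9), *Cyp51* (11.7), *Fdps* (2.55), *Idi1* (2.22), *Abca1* (1.89), *Srebf1* (1.65) and *Lss* (0.277). Neighbours in that order overlapped, except that all *Srebf1* values were above all *Lss* values. LPS samples had *Insig1* (23.1), *Msmo1* (15.0), *Idi1* (10.1), *Cyp51* (7.92), *Abca1* (7.20), *Fdps* (4.23), *Srebf1* (2.03) and *Lss* (0.547), where *Fdps* and *Srebf1*, and *Srebf1* and *Lss*, did not overlap. In that order *Idi1* stood below *Fdps* in untreated and above *Cyp51* in LPS samples. TPM is per transcript length, but the average over transcripts lowers genes with many listed transcripts (from 5 for *Abca1* to 74 for *Fdps* in GENCODE M39), so the order is a description of this table.

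Other genes of sterol metabolism were taken from 7 lists that hold 133 gene symbols with the 8 genes, of which 95 were tested. *Hmgcs1*, *Sqle*, *Srebf2* and *Abcg1* are among those not analysed here, because the table holds no row for them. It holds 0 protein-coding genes of chromosomes 14 to 19. The counts and medians of the lists therefore cover only part of the pathway. Of the 95, 2 rose (*Nus1* and *Ubxn8*) and 1 fell (*Abcg4*), beside 1.69% and 1.31% of all genes tested. Their log2 differences had a median of 0.07, with 56 above 0 and 39 below. The groups did not overlap for 16 with LPS higher and for 4 with LPS lower, against 13.1% and 9.75% of all genes.

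Among 12 tested genes of the mevalonate and isoprenoid steps, 1 rose and 0 fell, and the median log2 difference was 0.26. The riser was *Nus1*, a subunit of the enzyme that makes dolichol, a branch from the path to cholesterol. It stood at 0.510, 1.17 and 0.272 in untreated and at 15.0, 6.41 and 12.7 in LPS samples, with no overlap and a log2 difference of 2.87 (SE 0.42, adjusted p = 0.038). *Mvd*, the decarboxylase just before *Idi1*, was evenly expressed at 22.3, 23.3 and 21.6 in untreated and stood at 37.5, 58.3 and 42.3 in LPS samples. Its groups did not overlap, but its log2 difference of 0.98 (SE 0.29, adjusted p = 0.15 by limma) was not called. *Idi1* and *Mvd* thus stood higher in every LPS sample, while the next enzyme, *Fdps*, overlapped.

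Among 10 tested genes of the squalene and sterol steps, 0 were called, with a median of 0.15. *Lbr*, which is both a sterol reductase and the lamin B receptor of the nuclear envelope, stood at 9.31, 10.5 and 7.05 in untreated and at 2.32, 4.03 and 1.98 in LPS samples. Its groups did not overlap, with a log2 difference of -1.42 (SE 0.34, adjusted p = 0.10 by limma) inside the fold limit. *Sc5d* and *Erg28* had log2 differences of 1.08 and 1.04 with overlapping groups (adjusted p = 0.56 and 0.37).

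Among 12 tested genes of SREBP control, 1 rose and 0 fell, with a median of 0.21. The riser was *Ubxn8*, a membrane protein of endoplasmic reticulum-associated degradation. It is on the list through a name like that of UBXD8, the product of *Faf2*, which is the factor known to act on INSIG1, and its own part in SREBP control is not established background. *Ubxn8* stood at 4.92, 10.8 and 2.48 in untreated and 51.7, 44.3 and 39.6 in LPS samples (log2 difference 2.88, SE 0.49, adjusted p = 0.051), and it overlaps *Ppp2cb* over 733 bases on the other strand. *Rnf145*, a ubiquitin ligase of the endoplasmic reticulum, stood at 11.3, 1.29 and 0.748 in untreated and at 16.9, 24.5 and 18.6 in LPS samples. Its groups did not overlap, but with untreated 1 near the LPS range its log2 difference of 2.50 (SE 0.77, adjusted p = 0.17 by limma) missed the p limit. *Scap* had a log2 difference of -0.66 (adjusted p = 0.50) and *Insig2* -0.23 (adjusted p = 0.86).

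Among 19 tested genes of sterol uptake and trafficking, 0 were called, with a median of 0.20. *Mylip*, an LXR-induced ubiquitin ligase that limits sterol uptake, stood at 20.8, 22.2 and 22.4 in untreated and at 60.4, 66.3 and 92.0 in LPS samples. The *Mylip* groups did not overlap, and its log2 difference of 1.67 (SE 0.29, adjusted p = 0.052 by limma) passed the p limit but not the fold limit. *Gramd1a*, a carrier of sterol from the plasma membrane, had 1.39 and *Osbpl5* -0.87, with overlapping groups.

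Among 17 tested genes of sterol export and LXR targets, 0 rose and 1 fell, with a median of 0.07. *Abcg4*, a sterol exporter related to *Abcg1*, fell from 11.8, 8.65 and 11.0 to 0.917, 0.910 and 1.15, with a log2 difference of -2.52 (SE 0.28, adjusted p = 0.021). The estimates of *Abca1* and *Abcg4*, both exporters, thus lay on opposite sides of 0. Only *Abcg4* was called, and the interval of *Abca1* (-0.42 to 2.88) held 0, so an opposite direction is not shown. *Abca7*, a close relative of *Abca1*, stood at 0.548, 3.00 and 2.29 in untreated and 2.86, 13.3 and 4.15 in LPS samples, again with LPS 2 the highest (log2 difference 1.27, SE 0.63, adjusted p = 0.37). The LXR genes *Nr1h3* and *Nr1h2* had 0.49 and -0.40 (adjusted p = 0.55 and 0.61). *Apoe*, which accepts exported cholesterol and marks macrophages, stood at 65.0, 14.8 and 86.4 in untreated and 72.6, 26.0 and 51.6 in LPS samples (0.07, adjusted p = 0.97), lowest in replicate 2 of both groups.

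Among 13 tested genes of sterol esters and oxysterols, 0 were called, and 9 were below 0, with a median of -0.04. *Lipe*, *Plin2* and *Nceh1*, which act on lipid droplets and stored esters, had log2 differences of -1.11, -0.84 and -0.57, with overlapping groups. Among 13 tested fatty acid targets of SREBP1, 0 were called, with a median of 0.02. *Acsl1*, an acyl-CoA synthetase, stood at 1.99, 1.45 and 0.666 in untreated and 4.18, 3.29 and 4.65 in LPS samples, without overlap (1.12, SE 0.35, adjusted p = 0.17 by limma). *Elovl1* and *Fasn* had 0.76 and 0.55, beside 0.23 for *Srebf1* itself.

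Likeness of pattern was measured as the root mean square difference, over the 6 samples, of log2(scaled TPM + 1) centred on each gene, among 4237 or 4238 genes with a mean of at least 5. The genes most like *Idi1* were *Smcr8* (0.161), *1600010M07Rik* (0.197) and *Larp4b* (0.201). The nearest were *Skap2* for *Insig1* (0.168), *Ppp2r3d* for *Cyp51* (0.204), *Got2* for *Fdps* (0.111), *Bsg* for *Lss* (0.085), *Sntb2* for *Msmo1* (0.180) and *Wdr45b* for *Srebf1* (0.158). *Abca1* had no gene as near, with *Klf13* at 0.346 and *Tnip1* at 0.409. The measure favours genes of small variation, such as *Lss*.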

How the data were processed

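Neutrophil RNA of 3 untreated and 3 LPS samples was sequenced from stranded libraries, and groups were taken from the treatment labels. The authors trimmed reads with fastp, aligned them with STAR to GRCm39 (the labels also name mm10), used kallisto for the transcript abundances and edgeR to normalize. The annotation release and the strand setting are not given in the sources used here. The deposited table is called normalized counts, but its values are not whole, and each was read here as the average TPM of the transcripts that a gene has, with 1 scaling factor for each sample. When multiplied by a whole number from 3 to 30, 51.6% of 1008 non-terminating values of untreated 3 (factor 1) end within 5 decimals, against 0.192% to 0.436% in the other samples. Depth is therefore unknown, no count test was run, and the spread between samples gives the precision.

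Genes with a value above 0 in any sample were fitted with limma 3.58.1 in R 4.3.3 (lmFit, eBayes with trend, two-sided) on log2(value + 1), without covariates, and called at p under 0.01 and a log2 difference beyond 2, the limits of the study. The fit was tested on simulated data. Annotation was GENCODE M39 on GRCm39, promoters were from RefSeq, and stretches at least 95% identical over at least 150 bases were searched with blastn 2.17.0. The 8 genes and all lists were chosen with earlier results of these data known. Named are the 8 genes, called list genes, the 3 of each list with the largest difference among those with a mean of at least 1 in either group, preset genes (*Scap*, *Insig2*, *Nr1h2*, *Nr1h3*, *Apoe*, *Cgas*), and overlapping or near-identical genes. Some genes that this rule takes in are counted in their lists but not reported here. Alternatives were other pseudocounts, filters, scalings, eBayes without trend, limma-voom, a replicate block and leaving out samples.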

Additional observations from a re-analysis of the deposited data

How the results depend on the processing

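Of the 8 genes, 0 were called in either direction except that *Idi1* was called higher (1 of 8) with a pseudocount of 0.1, a pseudocount of 0.01 and limma-voom. Over 18 fits *Idi1* had a log2 difference of 1.05 to 2.59, with p under 0.01 in 17 (0.011 without LPS replicate 1) and an adjusted p under 0.05 in 3. The direction of 3 of the 8 turned. *Cyp51* was 0.47 with limma-voom and -0.75 to 0.51 when 1 sample was left out (0.51 without untreated replicate 1). *Msmo1* was -0.02 with a pseudocount of 5, -0.18 when centred on the median and -0.59 to 0.48 when 1 sample was left out (-0.59 without untreated replicate 3, -0.40 without LPS replicate 2). *Srebf1* was -0.05 to 0.42 when 1 sample was left out (-0.05 without untreated replicate 2) and -0.11 without replicate 2 of both groups, a setting chosen after the data were seen. *Nceh1* was 0.04 with limma-voom. The cause was not tested.

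Among all genes, 389 were called higher and 301 lower, and these counts were 856 and 493 with a pseudocount of 0.1, 967 and 512 with 0.01, 129 and 168 with 5, and 1552 and 177 with limma-voom. With 1 sample left out, 238 to 434 passed the p and fold limits higher and 241 to 375 lower. At an adjusted p under 0.05 by limma with no fold limit, 206 were higher and 218 lower, which became 1 and 7 without LPS replicate 1, 1 and 7 without LPS replicate 3, 63 and 71 without untreated replicate 3, 132 and 180 without untreated replicate 1, 230 and 129 without LPS replicate 2, and 0 and 0 without replicate 2 of both groups, where 421 and 334 passed the p and fold limits. Calls were 56.4% higher in direction, against 42.8% when centred on the median, 43.4% with a pseudocount of 5 and 89.8% with limma-voom, under which the median log2 difference of all genes was 0.67. Of the pathway genes, 2 were higher and 1 lower, and these were 4 higher with a pseudocount of 0.01, 1 higher and 0 lower with 5 (*Nus1* 1.50 and *Abcg4* -1.36), 7 higher with limma-voom, 1 higher at an adjusted p under 0.05, and 2 to 3 higher and 1 to 1 lower with 1 sample left out. *Rnf145* was called at 3.37 without untreated replicate 1 and 3.40 with limma-voom, *Mylip* at 2.32 with limma-voom and *Gramd1a* at 2.05 without untreated replicate 3.

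A fit with a replicate block called 387 genes higher and 303 lower, but at an adjusted p under 0.05 it left 1 higher and 15 lower. In that fit 0 of the 8 genes and 2 and 1 of the pathway genes were called, and the adjusted p of *Idi1* was 0.139 and of *Nus1* 0.134 by limma. Deviations of same-numbered samples correlated at 0.102, 0.220 and 0.093 across genes, not all over 0.1, so the numbers were not taken to pair the samples. Each untreated sample correlated best with the LPS sample of its own number. Erythrocyte and platelet markers were highest in replicate 3 of both groups, at 2705 in untreated and 3101 in LPS samples. These are hints from the data and not from the design, and a pairing was not excluded. Depth is unknown, so what it limits could not be computed.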
